A study of Mus musculus and synthetic RNA with 74 samples.

Results

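FGF4 is the ligand that inner cells of the mouse blastocyst use to signal through FGF receptors and the RAS to ERK kinase chain. The 10 genes described here are the ligand Fgf4, the receptors Fgfr1 and Fgfr2, the adaptor Grb2, the feedback inhibitors Spry2 and Spry4, the ERK phosphatases Dusp4 and Dusp6, and the ETS transcription factors Etv4 and Etv5. They were chosen by gene symbol, and all 10 were listed at both stages, among 20330 genes listed at E2.5 and 21199 at E3.5. Single mouse embryos were sequenced at embryonic day 2.5, the morula, and at day 3.5, the blastocyst. Each embryo carried the wild-type (WT), heterozygous (HET) or homozygous knockout (KO) state of Mettl16, the gene for an RNA m6A methyltransferase. The E2.5 set held 5 WT, 14 HET and 12 KO embryos, and the E3.5 set held 18 WT, 9 HET and 12 KO embryos. The mutant allele was a triple-stop cassette placed in exon 3, kept as 1 line that was founded in B6D2F1/J zygotes and crossed to C57BL/6JRj mice.

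Polyadenylated RNA of each embryo was amplified by Smart-seq2, a method that yields libraries without strand information. The values used here are the means that the authors took over all embryos of a stage, WT, HET and KO together, as normalized counts. Such a mean carries no spread and cannot be split by genotype, so no genotype was compared, the knockout was not checked through Mettl16, and no test could be run. Mettl16 itself was listed at a mean of 778 at E2.5 and 669 at E3.5. The tables of the stages were normalized separately, so levels set side by side were divided by the summed means of their own table, which sum to 23557112 for E2.5 and to 27145016 for E3.5, and multiplied by 1000000. They are called scaled levels here. Exon and intron values were scaled in the same way, but by the summed exon means of their own stage. A fold or log2 difference between the stages is one of scaled levels, except for the intron sums, which are compared as normalized counts. The stage differences are therefore descriptions. The stage, the mix of genotypes and the separate normalization differ together between the tables and cannot be told apart. The depth of single embryos was not analysed here. The number of reads behind a value can be judged from the mean multiplied by the 31 or 39 embryos, which for the 10 genes ran from about 213 normalized counts for Etv4 at E2.5 to 142791 for Fgfr2 at E3.5.

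As background, FGF ligands bind their receptors together with heparan sulfate, and the activated receptor is coupled by FRS2 and GRB2 to SOS, RAS, RAF, MEK and ERK. ERK activity induces its own brakes, the Sprouty proteins and the DUSP phosphatases, and the ETS factors ETV4 and ETV5, which makes these transcripts common readouts of the pathway. In the blastocyst, epiblast precursors make FGF4, and the signal pushes neighbouring inner cells towards primitive endoderm and sustains proliferation of the trophectoderm.

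Of the 10 genes, 7 had a higher scaled level in the E3.5 table and 3 had a lower one. In the sum of all exons but the last, the split was 3 higher and 7 lower, with Fgf4, Fgfr1, Fgfr2 and Etv5 turning direction. Among 12965 genes with a mean of at least 10 at either stage, 47.5% were higher in that sum. Those higher as whole genes were Fgf4, Fgfr1, Fgfr2, Spry2, Dusp4, Dusp6 and Etv5, and those lower were Grb2, Spry4 and Etv4. Etv4 was the one member with means under 10 at both stages. Among the 14155 genes with a mean of at least 10 at either stage, 61.0% were higher at E3.5, so the direction of most members was also that of most genes. A level at least 2-fold higher at E3.5 was found for 5 members, where the share among all genes was 35.4%. A level at least 2-fold lower was found for 1 member, where the share among all genes was 19.5%. The median log2 difference of the members was 0.90 against 0.42 over all these genes. In whole embryos, fewer cells of a type and less RNA per cell cannot be told apart.

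**Figure D1:**
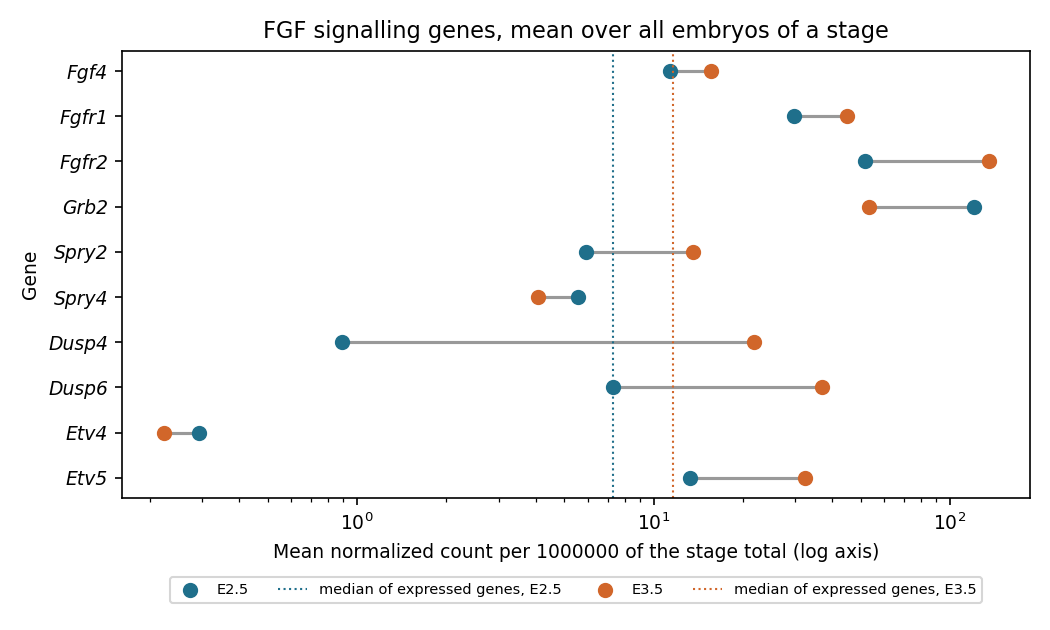
Scaled level, the mean normalized count per 1000000 of the stage's total (log axis), for the 10 genes at E2.5 (blue) and E3.5 (orange), each point being the mean over all embryos of a stage; dotted lines give the median of the genes with a mean of at least 10 at either stage, 7.30 at E2.5 and 11.6 at E3.5. Dusp4 shows the widest gap and Etv4 the lowest levels.

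The ligand Fgf4 had a mean normalized count of 268 at E2.5 and 423 at E3.5. The scaled level was 11.4 at E2.5 and 15.6 at E3.5, a log2 difference of 0.46. At both stages Fgf4 stood near the 70th percentile of the listed genes, at 69.5 and 70.1. The gene lies on the plus strand of mm10 chromosome 7, at chr7:144861386-144865243, and its transcript NM_010202 has 3 exons. The first exon holds the start codon, the second is coding throughout, and the last exon of 2479 nt carries 177 coding bases followed by the 3′ UTR. The ends of this last exon are those used by the authors and matched no exon of RefSeq GRCm38.p6.

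The exons of Fgf4 did not share one direction. Exon 1 had a mean of 43.0 at E2.5 and 12.5 at E3.5, and exon 2 had 32.5 and 8.18. Exon 3, the last exon, had 222 and 361. Fgf4 was therefore higher at E3.5 only through its last exon. The other 2 exons together were 3.07-fold lower at E3.5 as scaled levels. A higher last exon was common, and Fgf4 with a log2 difference of 0.95 in it lay near the median of all genes. That median was 0.87 over 7934 genes with an exon sum of at least 100 at both stages, and 75.6% of them were higher.

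The last exon of Fgf4 is also the place of an enhancer that SOX2 and the POU factor OCT4 are known to bind. The following 30 bases of the 3′ UTR are shown because they carry both motif words in this exon. They are the plus strand of chr7:144864388-144864417 (GRCm38.p6, the RefSeq release of mm10), and the capitals mark CTTTGTT, a SOX word, and ATGCTAAT, a POU word.
Fgf4 exon 3 site: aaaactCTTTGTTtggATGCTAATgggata
A search of both strands found each word in this exon once, with 3 bases between them, and the first base of the SOX word lies 1453 bases past the end of the coding sequence. The words do not overlap. Among 24467 windows of 2479 bases that end at the 3′ end of a gene, 47.3% held the SOX word and 7.26% held the POU word. Only the Fgf4 window held both at this spacing. The spacing and the window length were taken from Fgf4 itself, so its window had to match, and no weight is put on this count. This is a match of letters, and nothing about binding in these embryos was measured.

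The receptors were the members with the most signal after Grb2 at E2.5. Fgfr1, which in the blastocyst is the receptor shared by all inner cells, had a mean of 701 at E2.5 and 1221 at E3.5, a log2 difference of scaled levels of 0.60. Fgfr2, known for its expression in trophectoderm and primitive endoderm, had 1214 and 3661, a log2 difference of 1.39. In all exons but exon 18, the last exon, the log2 difference of the sum was -0.47 for Fgfr1 and -0.11 for Fgfr2. Of these 17 exons of Fgfr1, 5 were higher after scaling at E3.5 and 12 were lower. In Fgfr2 10 were higher and 7 were lower, the lower ones being exon 6 and exons 10 to 15. As a scaled level per kb of exon, Fgfr2 stood at 9.91 at E2.5 and 25.9 at E3.5, and Fgfr1 at 5.92 and 8.95. Fgfr2 held the second place among the members at E2.5 and the first at E3.5 on this scale. With no spread available, it cannot be said which neighbours in such an order differ.

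Fgfr2 is encoded on the minus strand of mm10 chromosome 7, at chr7:130162451-130266808, in 18 exons of NM_010207. Its exon levels at E2.5 fell into 2 blocks. Exons 5 to 9, which encode part of the extracellular region and the membrane span, had means from 10.2 to 21.3. Exons 10 to 17, which encode most of the intracellular part with the kinase, had means from 125 to 215. Per kb of exon, the first block stood at 88.0 and the second at 1295, a ratio of 14.7. The blocks were drawn after the exon values had been seen.

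The step itself lay between 2 neighbouring coding exons. Exon 9 (203 nt) had a mean of 21.3 at E2.5, and exon 10 (152 nt) had 163, so that the level per kb went from 105 to 1073, by a factor of 10.2. At E3.5 the same exons had means of 31.7 and 38.7, and the level per kb differed by a factor of 1.63. Among 26127 steps between neighbouring internal exons of 4509 genes at E2.5, taken where the downstream exon had a mean of at least 100, the median step was 1.02 and 0.597% were at least as large as this one. The Fgfr2 step was picked after the exon values had been seen, and the share counts steps and not genes. It therefore does not say how many genes hold a step of this size. The transcript NM_010207 carries no annotated start at the step. The exons on either side of the step are shown in the direction of the gene, with capitals on the first ATG in the reading frame of NM_010207 that lies past the step.
Fgfr2 exon 9 (chr7:130196172-130196374, minus strand): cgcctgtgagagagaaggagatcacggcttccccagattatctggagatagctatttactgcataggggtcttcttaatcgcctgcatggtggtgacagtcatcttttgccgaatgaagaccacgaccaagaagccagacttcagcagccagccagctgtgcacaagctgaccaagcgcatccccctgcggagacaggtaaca
Fgfr2 exon 10 (chr7:130185229-130185380, minus strand): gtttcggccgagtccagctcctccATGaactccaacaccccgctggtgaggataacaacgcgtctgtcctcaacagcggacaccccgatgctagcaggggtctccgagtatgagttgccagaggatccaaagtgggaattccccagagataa
That ATG starts at base 25 of exon 10 and is codon 457 of 840, which leaves 384 codons to the end. Whether any RNA starts near it, or is translated from it, was not measured.

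The introns beside the step also held signal. Intron 10, which follows exon 10, had a mean of 85.1 over 2466 nt at E2.5, or 34.8 per kb, where the median of the 17 introns of Fgfr2 was 3.20 per kb. At E3.5 intron 10 had 133, or 54.4 per kb, against a median of 19.7. Intron 9, which lies between exons 9 and 10, had a mean of 90.2 over 10791 nt at E2.5, or 8.38 per kb. At E3.5 intron 9 had 202, or 18.7 per kb, under the median. All 17 introns of Fgfr2 were higher after scaling at E3.5. Their part in the exon values was not tested.

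Fgfr1, which has the same number of exons and nearly the same exon lengths through the kinase region, serves as a comparison. At E2.5 its exons 5 to 9 stood at 285 per kb and its exons 10 to 17 at 489 per kb, a ratio of 1.72. Exon 9 stood at 339.8 per kb and exon 10 at 383 per kb, a step of 1.13. At E3.5 the 2 blocks of Fgfr1 stood at 84.7 and 438 per kb, a ratio of 5.17, reached through a gradual climb over exons 10 to 17. Fgfr2 at E3.5 had a block ratio of 7.82, also through a climb, from 255 per kb in exon 10 to 1924 in exon 17.

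**Figure D2:**
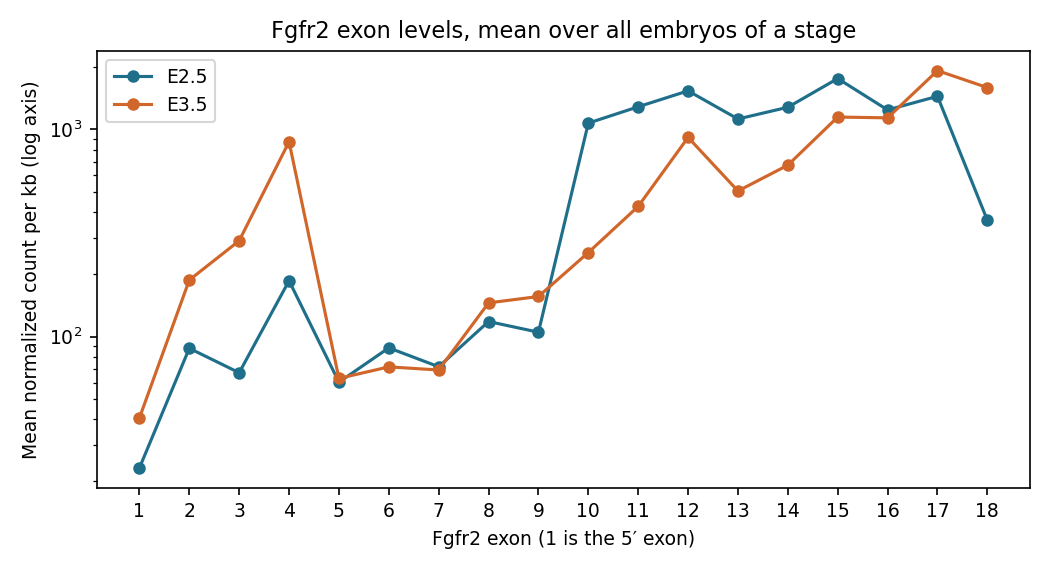
Mean normalized count per kb of exon (log axis) for the 18 exons of Fgfr2 from the 5′ to the 3′ end at E2.5 (blue) and E3.5 (orange), each point being the mean over all embryos of a stage. At E2.5 the level steps from 105 per kb in exon 9 to 1073 in exon 10, and at E3.5 from 156 to 255, with a separate high point of 873 at exon 4.

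The 5′ exons of Fgfr2 behaved differently again. Exon 4 (78 nt) had a mean of 14.5 at E2.5 and 68.1 at E3.5, and exon 5, the next exon, had 10.2 and 10.7. The level per kb thus went from 873 to 62.8 between these exons at E3.5. Exons 3 and 4 were higher than exons 5 to 9 at E3.5, and intron 4, which separates exons 4 and 5, had a mean of 325 over its 12407 nt at that stage.

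Alternative splicing of a single exon gives FGFR2 its IIIb and IIIc forms, which differ in the last part of the third immunoglobulin domain and in the ligands they bind; FGF4 is known to act mainly through IIIc forms. The IIIb exon of NM_201601 (148 nt) had a mean of 6.00 at E2.5 and 14.9 at E3.5. The IIIc exon of NM_010207 (145 nt) had 17.1 and 21.1. Per kb of exon, IIIc made up 74.5% of the pair at E2.5 and 59.1% at E3.5. The IIIc exon was above the IIIb exon at both stages, by a factor of 2.91 at E2.5 and 1.44 at E3.5. About 186 and 531 normalized counts stood behind the IIIb and IIIc values at E2.5, and about 582 and 823 at E3.5. The intron of NM_010207 that contains the IIIb exon had a mean of 87.8 at E3.5, so part of the signal in the IIIb exon can be intronic, which was not tested. Since exons 5 to 9 carried little of the Fgfr2 signal at E2.5, the share describes the RNA that includes this region and not all Fgfr2 RNA. For Fgfr1 a single exon is listed at this place, so no share was taken.

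Grb2, the adaptor that brings SOS to activated receptors, was the member with the highest level at E2.5. Its mean was 2829 at E2.5 and 1452 at E3.5, which after scaling was 2.24-fold lower at E3.5. As a scaled level per kb it stood at 44.3 and 19.7. Grb2 lies on the minus strand of mm10 chromosome 11, at chr11:115644045-115708597, with 6 exons in NM_008163. All 6 exons were lower after scaling at E3.5. The last exon had means of 1504 and 779.5, and the other 5 together had 3646 and 766. The exon values and the gene value were counted with different programs, so an exon sum need not match the gene value. The reason for the gap was not tested.

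Within Grb2 the first exon stood apart. Exon 1, an untranslated exon of 204 nt, had a mean of 38.2 at E2.5, and exon 2, which holds the start codon, had 899. The level per kb differed by a factor of 23.4 at E2.5 and 4.73 at E3.5. Over 3743 genes at E2.5 the median step from the first to the second exon was 1.91, and 1.98% of these steps were at least as large. The Grb2 step was picked after the exon values had been seen. The other annotated first exon, of 29 nt in NM_001313936, had a mean of 0.131 at E2.5 and 0.170 at E3.5. The longer second exon of NM_001313937, used there as a first exon of 383 nt, had 899 in total, so its added upstream stretch held almost no signal.

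The Sprouty inhibitors block the path from the receptor to RAS. Spry2 had a mean of 139 at E2.5 and 368 at E3.5, which after scaling was 2.29-fold higher. Spry4 had 131 and 111, a log2 difference of -0.44. Both are genes of 2 exons with the whole coding sequence in the second. In Spry2 both exons were higher at E3.5, with means of 17.3 and 37.2 in the first exon and 112 and 283 in the second. In Spry4 the first exon had 4.59 and 0.854, and the second had 122 and 96.3. At E2.5 the 2 genes stood at percentiles 63.1 and 62.6, and at E3.5 they stood at 68.4 and 56.4.

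As whole genes, the ERK phosphatases had the largest stage differences of the 10. In all exons but the last, Etv4 differed by -2.59 on the log2 scale against 2.51 for Dusp4, and Spry4, Grb2 and Fgf4 differed by more than Dusp6. Dusp4, a nuclear phosphatase, had a mean of 20.9 at E2.5 and 594 at E3.5, which after scaling was 24.6-fold higher. Dusp6, a cytoplasmic phosphatase specific for ERK, had 172 and 1001, which was 5.05-fold higher. Dusp4 moved from percentile 44.6 to 74.5 and Dusp6 from 65.2 to 81.2. Every exon of both genes was higher after scaling at E3.5. In Dusp4, on mm10 at chr8:34807610-34819894, the first exon had means of 6.04 and 17.95 and the last had 12.8 and 476. In Dusp6, at chr10:99263231-99267489, the first exon had 75.2 and 153 and the last had 77.1 and 622. The last exon of Dusp6 shares bases with an exon of Gm34921 on the other strand, whose reads cannot be told apart without strand information.

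ETV4 and ETV5 are ETS factors transcribed downstream of FGF and ERK, and only Etv5 was well covered. Etv5 had a mean of 314 at E2.5 and 884 at E3.5, a log2 difference of scaled levels of 1.29. Etv4 had 6.88 and 6.05, the lowest level of the 10 genes at both stages, at percentiles 34.1 and 33.3. As scaled levels per kb, Etv5 stood at 3.48 and 8.52 and Etv4 at 0.125 and 0.0955. Among the 13 exons of Etv5, the last one had means of 171 and 567. Of the other 12, 4 were higher and 8 were lower after scaling at E3.5. The 4 higher ones were exons 2 to 5, for example exon 3 with 24.4 and 28.8. Exon 1 was lower, with 13.2 and 7.93, as were exons 6 to 12, for example exon 8 with 28.2 and 12.1. Exon 12 differed by only -0.02 on the log2 scale.

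The difference between last and other exons was shared by most genes of these tables. Over 7936 genes with an exon sum of at least 100 at both stages, the last exon held a median of 21.4% of the exon sum at E2.5 and 35.9% at E3.5, and the share was higher at E3.5 in 91.2% of them. The last exon had a higher share at E3.5 in all 10 members. It went from 74.6% to 94.6% in Fgf4, from 29.3% to 69.9% in Fgfr2, from 26.3% to 58.6% in Fgfr1, and from 38.0% to 73.0% in Etv5. Spry2 differed little, with 86.6% and 88.4%. Exons centred within 500 nt of the 3′ end had a median log2 difference of 0.76 between E3.5 and E2.5 and those centred 2000 to 3000 nt away had -0.73. Its part in the stage differences of the 10 genes was not tested.

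**Figure D3:**
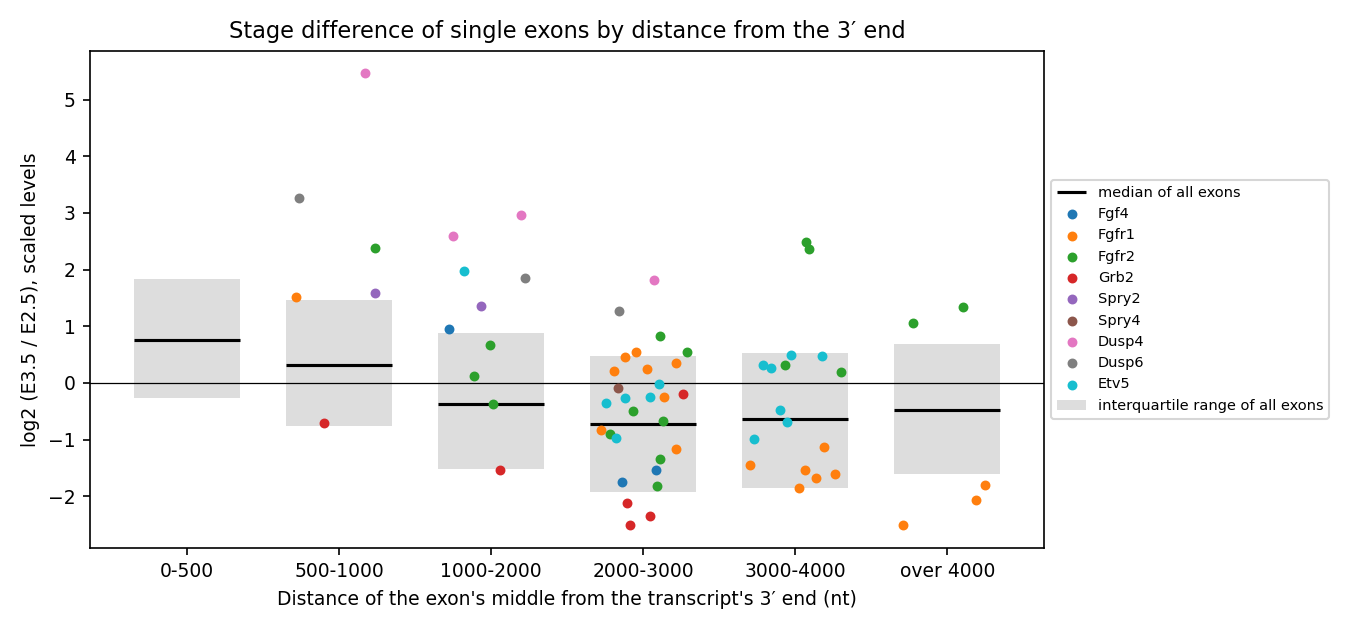
Log2 ratio of scaled levels, E3.5 over E2.5 (vertical axis), for exons with a mean of at least 10 over the stages, grouped by the distance of the exon's middle from the 3′ end of the transcript; grey bars span the interquartile range of all exons, black lines are their medians, and points are exons of 9 members spread sideways for sight, Etv4 being too low to enter. The median falls from 0.76 nearest the 3′ end to -0.73 at 2000 to 3000 nt, and the Dusp4 and Dusp6 points lie above the grey bars.

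Seen apart from the last exon, the members divided differently. In all exons but the last, Spry2, Dusp4 and Dusp6 were higher after scaling at E3.5, with folds of 2.55, 5.71 and 2.91. Fgf4, Fgfr1, Fgfr2 and Etv5, which were higher as whole genes, were lower in the sum of these exons, with log2 differences of -1.62, -0.47, -0.11 and -0.17. In the last exon alone 8 of the 10 genes were higher, and Grb2 and Spry4 were lower. Over all genes of the comparison the median log2 difference was 0.87 in the last exon and -0.23 in the others. The share of genes that were higher at E3.5 was 75.6% in the last exon and 43.9% in the others. Dusp4, Dusp6 and Spry2 were thus above zero in both parts, and Grb2 and Spry4 were below zero in both.

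**Figure D4:**
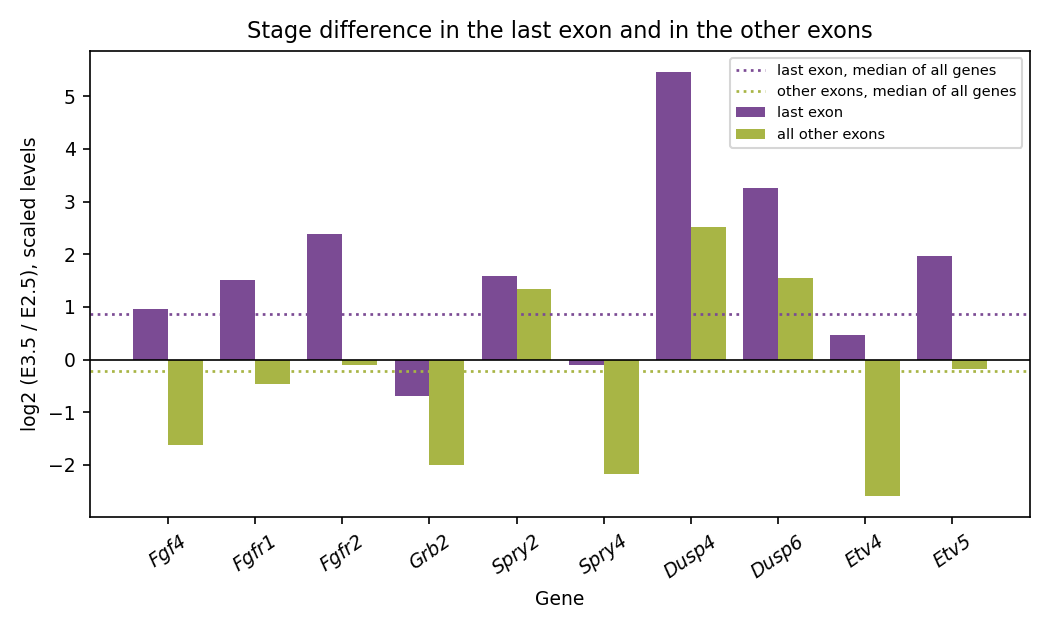
Log2 ratio of scaled levels, E3.5 over E2.5, in the last exon (purple bars) and in all other exons together (green bars) for each of the 10 genes, with dotted lines at the medians of all genes, 0.87 and -0.23. Spry2, Dusp4 and Dusp6 are above zero in both parts, and Grb2 and Spry4 are below zero in both.

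Intron signal was low beside exon signal in most members, but in most it was above the median of all genes at E2.5. At E2.5 the level per kb of intron was under 10% of that of exons in all 10 genes, from 0.302% in Spry4 to 9.03% in Spry2. The median over all genes was 0.720%, and every member but Grb2 and Spry4 stood above it. The share of all genes under 10% was not counted. At E3.5 the level per kb of intron was under 10% in 8 of the 10, the exceptions being Spry2 with 12.1% and the sparse Etv4 with 10.6%. The median over all genes was 1.29%, and Fgfr1, Fgfr2, Spry2, Spry4, Etv4 and Etv5 stood above it. The intron sum of Fgfr2 was 399 at E2.5 and 1989.7 at E3.5, that of Fgfr1 97.9 and 321, and that of Etv5 60.2 and 285. The intron sums of these 3 genes were 4.99-fold, 3.28-fold and 4.74-fold higher as normalized counts, while their exons other than the last were lower in sum. Over all genes the median intron sum was 62.7 at E2.5 and 109.5 at E3.5, a ratio of medians of 1.75. A median of the folds of single genes was not taken. The pattern was not limited to these 3 genes. Spry4 with 8.38, Etv4 with 2.68 and Grb2 with 1.24 also had higher intron sums and lower sums of the exons other than the last. In Etv5 most of this signal lay in introns 5 and 7, with a mean of 25.1 against 111 in intron 5 and of 17.9 against 118 in intron 7. The 2 introns of Fgf4 had almost no signal, 1.08 and 0.514 in sum.

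Among the 17 other FGF ligands searched, 3 had a mean of at least 10 at either stage. Fgf10, a ligand of the IIIb forms, had a mean of 11.1 at E2.5 and 416 at E3.5. Fgf3 had 187 and 9.46. Fgf1, which binds all FGF receptors, had 109 and 12.8. After scaling these were log2 differences of 5.02 for Fgf10, -4.51 for Fgf3 and -3.29 for Fgf1. At E3.5 Fgf10 stood beside Fgf4 with 416 against 423 as means, and as scaled levels per kb with 3.35 against 5.15.

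The other receptors and co-receptors were all lower than Fgfr1 and Fgfr2 in means at both stages. Fgfr3 had 125 at E2.5 and 77.4 at E3.5, and Fgfr4 had 299 and 219. Fgfrl1, a receptor without a kinase domain, had 7.51 and 91.3. Of the Klotho co-receptors of the endocrine FGFs, Klb had 339 and 165, and Kl had 4.29 and 11.3. In sum 2 of the 5 were higher after scaling at E3.5 and 3 were lower.

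**Figure D5:**
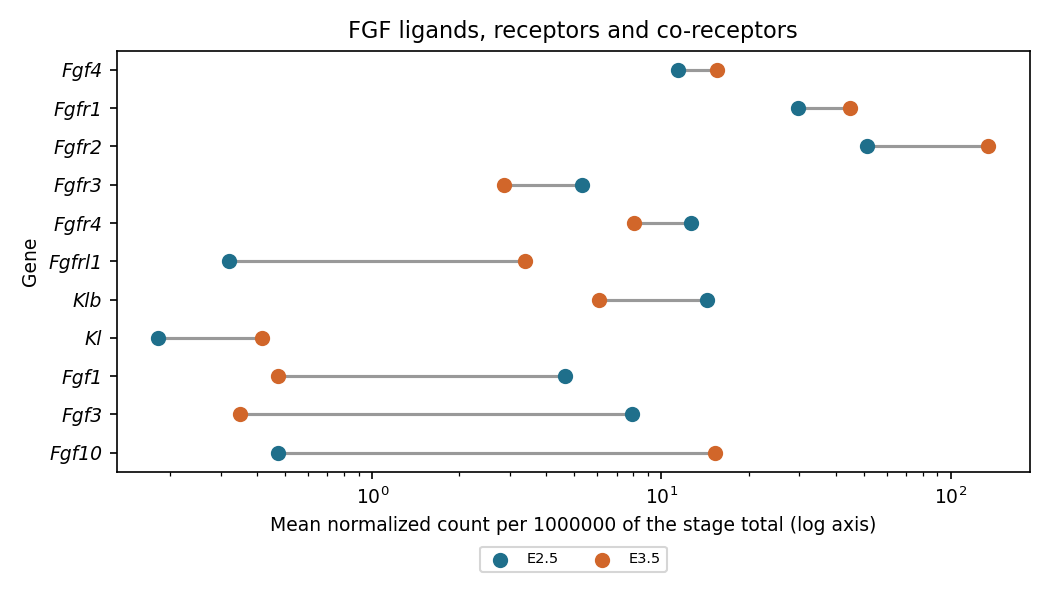
Scaled level, the mean normalized count per 1000000 of the stage's total (log axis), for Fgf4, Fgfr1, Fgfr2 and the other FGF ligands, receptors and co-receptors with a mean of at least 10 at either stage, at E2.5 (blue) and E3.5 (orange). Fgf10 and Fgfrl1 lie to the right at E3.5, and Fgf1 and Fgf3 lie to the left.

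Against the share of 61.0% among all genes, the other lists of the pathway gave the following counts. All 6 heparan sulfate enzymes had higher scaled levels at E3.5, among them Ext2 with means of 190.2 and 591, Hs6st1 with 438 and 603, and Ext1 with 118 and 249.6. Of the 17 adaptors and kinases from FRS2 to ERK, 11 were higher and 6 were lower. Map2k2, the gene for MEK2, had 5465 and 2162. Frs3 had 0.625 and 36.3. Of the 10 inhibitors with a mean of at least 10, 6 were higher and 4 were lower. Rasa1, a RAS GTPase activator, had 189.5 and 1567, Spry1 had 37.0 and 167, and Spred3 had 20.5 and 6.94. Of 6 ERK-responsive transcription factors that passed the same limit, 3 were higher and 3 were lower, with Myc at 2270.3 and 625 and Elk1 at 168 and 108. Fosl1 stayed under 1 normalized count at both stages, with 0.463 and 0.878. Over the 47 genes of the 6 lists that passed, 29 were higher at E3.5, with a median log2 difference of 0.44, close to the 0.42 of all genes.

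Markers of the cell types differed between the tables as well. The sums given for them are of unscaled means, so a small difference between stages can come from the unlike totals of the tables. All 6 trophectoderm markers had a mean of at least 10 at both stages, and their means summed to 8067 at E2.5 and 83383 at E3.5, with Krt8 at 651 and 30838. Tfap2c, which made up most of the E2.5 sum, went the other way, with 5278 and 1849. The 5 markers of the epiblast and inner cell mass, Fgf4 among them, summed to 11093 and 8812, with Nanog at 552 and 4161 and Pou5f1 at 9017 and 3527. The 5 primitive endoderm markers summed to 5009 and 5688, most of it Gata6 with 3569 and 3676, a log2 difference of -0.16 after scaling. Pdgfra had 94.3 and 1575, Gata4 was lower at E3.5 with 1268 and 253, and Sox7 stayed under 10. Of 5 oocyte markers, all passed a mean of 10 at E2.5 and 3 did at E3.5, and their sum was 2096 and 142. The 5 cumulus and granulosa markers summed to 2.66 and 3.58, with Ptx3 listed at neither stage and Foxl2 listed at E3.5 alone. The 3 blood markers summed to 50.2 and 14.5, nearly all of it Hba-a1. The part of these cell types in the levels of the 10 genes was not tested.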

How the data were processed

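For single embryos the authors estimated counts of RefSeq transcripts with Salmon 0.7.2, summed them to genes and normalized them with DESeq2 1.18.1. They aligned the reads to mm10 with STAR and counted exons and introns with featureCounts. Tools and versions are from the submitters' processing notes. The deposited signal is the mean normalized count over all embryos of a stage. The deposited tables also hold the authors' own DESeq2 comparisons of genotypes, as log2 fold changes and adjusted p-values, and these columns were not used. The table of the in vitro methylation libraries was not used.

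Since no value per embryo was used, the planned limma and edgeR comparisons of genotypes were not run. Means were divided by the table's total and multiplied by 1000000. For exon values, the transcript with the largest exon sum stood for each gene, exon and intron values were scaled by the summed exon means of these transcripts, and introns were taken 10 nt shorter at each end. Of 82 member exons, 79 matched a RefSeq exon of GRCm38.p6. Those without a match were exon 3 of Fgf4 and both exons of Spry4, which were used with the ends given by the authors. Shares of all genes were counted where either stage had a mean of 10 or more. The scaling was tested on simulated data. Python 3 with pandas, numpy and matplotlib was used. Named genes were the 10 members, ligands and receptors with a mean of at least 10, and in each other list the 2 highest and the lowest per kb at E3.5 (1 of them is not reported here), plus Mettl16, beside a few markers and exons named after their values were seen. The members and lists were chosen with earlier results of these data known. Alternatives were 2 other scalings, exon sums, levels per kb, a low-value filter, and intron medians, and, added after seeing the data, the last exon alone and all exons but the last.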

Additional observations from a re-analysis of the deposited data

How the results depend on the processing

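The count of members higher at E3.5 was 7 under the table's total, under the median ratio of genes with a mean of at least 100 at both stages, under the total without the 100 highest genes, and with exon sums. The median log2 difference of all genes was 0.41, 0.23, 0.34 and 0.35 in these settings. With the last exon only, chosen after seeing the data, the count was 8, where 71.7% of all compared genes were higher. In this setting Etv4 turned to 0.46. With every exon but the last, also chosen after seeing the data, the count was 3, where 47.5% of all compared genes were higher. Here 4 genes turned: Fgf4 to -1.62, Fgfr1 to -0.47, Fgfr2 to -0.11 and Etv5 to -0.17. The cause was not tested. All 10 members were listed under exon sums and levels per kb, and 9 had a mean of at least 10 at both stages. The members' percentiles shifted by a median of 2.5 points with exon sums, 2.65 per kb and 16.3 where low genes (mean under 10) were left out. The IIIc share of Fgfr2 without exon length was 74.1% at E2.5 and 58.6% at E3.5. With the median over introns, 9 members were under 10% at E3.5. The pathway lists had 29 higher genes under all 3 scalings and 28 with exon sums. The genotype comparison with its pseudocounts and its left-out embryos was not run, because values per embryo were not used here. No paired analysis was possible because the stage values are means over all embryos and come from no test. Without spread between embryos, no difference could be set against its error.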
